A study of Mus musculus with 16 samples.

Results

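Adrenergic receptors, a receptor kinase and the adenylyl cyclases of the heart were followed in mice with pressure overload. The members are Adrb1, Adrb3, Adra1a, Adra1b, Grk5, Adcy5 and Adcy6, taken by gene symbol from the count table, 7 of its 55573 genes. RNA came from the heart apex of 16 male mice, 4 in each of 4 groups, and poly(A)-selected libraries were read from a single end as 50-base reads. Wild-type pups had received AAV9 (adeno-associated virus serotype 9) under the skin on postnatal day 1, and every group carried a vector with the cardiac troponin T promoter, which is active in cardiomyocytes. The vector AAV9-cTNT-GFP (here AAV9-GFP) served as the control and AAV9-cTNT-CARDINAL (AAV9-Cardinal) carried the long noncoding RNA Cardinal. Each was studied after sham surgery and 4 weeks after TAC (transverse aortic constriction), a ligature that narrows the aorta and makes the left ventricle pump against a raised pressure. The ages of the mice at surgery are not given in the sources used here, and because the samples were pieces of tissue, fewer cells of a type and less RNA per cell cannot be told apart.

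Noradrenaline from sympathetic nerves and adrenaline from the blood reach the heart through these receptors. Beta receptors couple to the stimulatory G protein, which turns on adenylyl cyclase, and the cyclic AMP that the cyclase makes activates protein kinase A, which raises heart rate and contractile force. Alpha1 receptors couple to Gq instead, which activates phospholipase C and protein kinase C, a route long studied in cardiomyocyte growth. Grk5 is a kinase that phosphorylates activated receptors so that arrestins can bind and switch them off.

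Totals ranged from 16441997 to 21904589 counts per mouse (median 21723766). The groups could be told apart by their labels, since Gm12295, the mouse gene of Cardinal, lay between 18.3 and 93.9 CPM (counts scaled to a common library size) in AAV9-Cardinal hearts and between 3.42 and 7.24 CPM in AAV9-GFP hearts. The library that stood apart was AAV9-Cardinal TAC mouse 1, with Gm12295 at 93.9 CPM against 18.3 to 20.6 CPM in the other mice of its group and a summed level of 6 fibroblast markers of 621 CPM against 393 to 414 CPM. Results that rest on this mouse are given with and without it. Ventricular cardiomyocyte markers fitted the labelled tissue, with Myh6, Tnnt2, Actc1, Tnni3, Myl2 and Ryr2 summing to between 30077 and 42084 CPM in all mice, and atrial markers summed to at most 2.40 CPM.

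The levels of the members spanned a wide range, and their order per kilobase rests on the exon length counted for each gene. Per kilobase of exon in AAV9-GFP sham hearts, the cyclase Adcy6 was highest at 28.9 ± 3.15 CPM per kb (SD, n = 4) and the cyclase Adcy5 came next at 6.33 ± 0.69. Adra1b, an alpha1 receptor, followed at 4.86 ± 0.41 CPM per kb, Grk5 at 3.99 ± 0.48, Adrb1, the main beta receptor of heart muscle, at 3.18 ± 0.29, and Adra1a, the other alpha1 receptor of cardiomyocytes, at 2.30 ± 0.23. Adrb3, best known from fat cells, was at 0 in 15 of 16 mice and had 2 counts in AAV9-Cardinal TAC mouse 4, below the 3 counts (0.126 to 0.195 CPM, depending on the mouse) taken as the limit of detection, which covers counting error only. It did not pass the filter on low counts, so 6 of 7 members were tested. In this group the mice of neighbours in the order did not overlap, with the exception of Adra1b and Grk5, where the lowest Adra1b value of 4.29 CPM per kb lay under the highest Grk5 value of 4.63. After TAC the order of the means changed in its middle. In AAV9-GFP TAC hearts Grk5 stood at 5.03 ± 0.93 CPM per kb, above Adra1b at 3.18 ± 1.15, and Adrb1 followed at 3.05 ± 0.24. Mice of these neighbours overlapped, as did those of Adcy5 and Grk5, and Grk5 lay above Adra1b in 3 of 4 mice.

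Among the cyclases and among the alpha1 receptors a single gene supplied most of the reads per length. Adcy6 made up 64.5% ± 2.24 (SD, n = 4) of the summed level of 10 adenylyl cyclases in AAV9-GFP sham hearts, and Adcy5 made up 14.2% ± 0.60. Adcy4, at 10.2% ± 1.30, was the next of the cyclases. Adra1b made up 62.7% ± 0.81 of the 3 alpha1 receptors and Adra1a 29.6% ± 1.63. This order rests on the exon lengths, 3382 bases for Adra1b and 8728 for Adra1a. Without division by length Adra1a had the higher mean in these mice, 20.1 CPM against 16.4 CPM for Adra1b. Which transcripts were present was not tested. In AAV9-GFP TAC hearts the share of Adcy6 was 58.0% ± 1.57 and that of Adcy5 was 15.9% ± 0.67. These shares are given as a description, without a test.

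**Figure D1:**
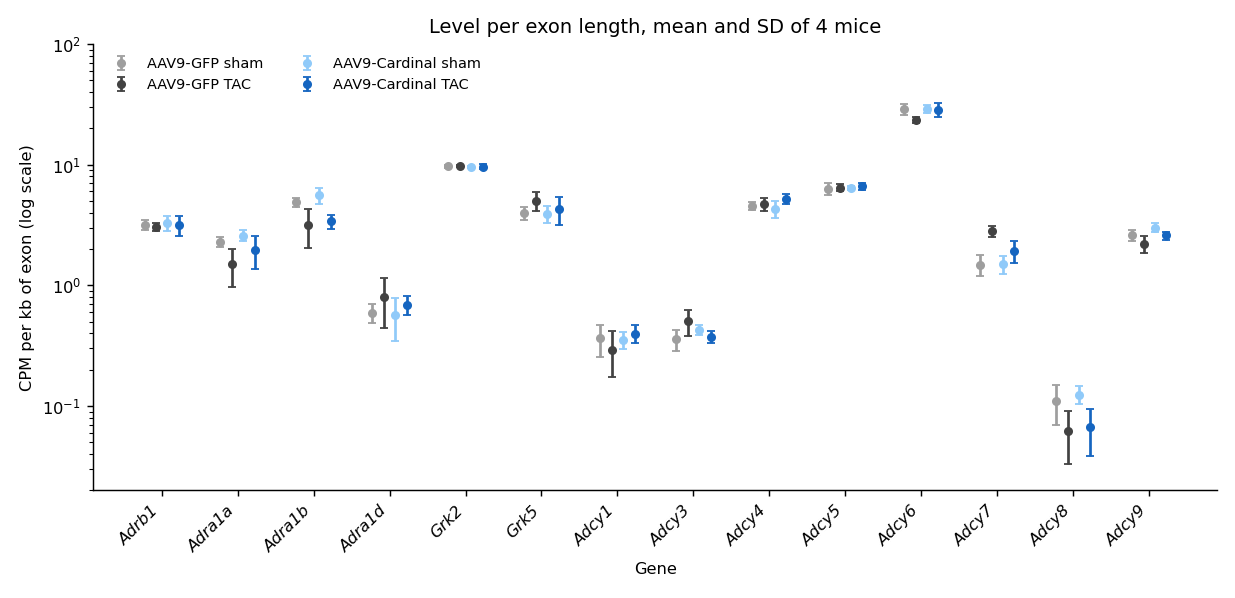
Level of receptors, receptor kinases and adenylyl cyclases in CPM per kilobase of exon (log scale), with the mean and SD of 4 mice in each group; Adrb3, at or near 0, is left out. Adcy6 lies highest among these receptors, kinases and cyclases in all 4 groups, near 28.9 CPM per kb in AAV9-GFP sham hearts, and Adra1a and Adra1b lie lower in both TAC groups than in the sham groups.

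The first comparison asked how pressure overload changed these genes with each virus. Adra1b was lower after TAC with both viruses, at 0.65 times its sham level with AAV9-GFP and 0.61 times with AAV9-Cardinal, and it was the member called in both. Adcy6 was lower after TAC in AAV9-GFP hearts, and Adra1a was lower on average over both viruses. Adrb1, Adcy5 and Grk5 did not pass the test in any of the TAC comparisons. Of the 6 members tested, 2 passed an adjusted p of 0.05 in AAV9-GFP hearts, where 17.4% of all 16857 genes passed (8.92% as lower). In AAV9-Cardinal hearts 1 passed, against 6.48% of all genes (3.38% as lower), and in the TAC effect averaged over the viruses 2 passed, against 23.1% (11.3% as higher and 11.8% as lower). The median log2 fold change of the 6 members was -0.18 in AAV9-GFP hearts and -0.05 in AAV9-Cardinal hearts, and over all genes it was 0.01 and 0.00. Counts of 1 or 2 members are too small to be read against these background shares. All adjusted p-values of members are from edgeR's quasi-likelihood test with Benjamini-Hochberg adjustment over all genes tested.

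Among the receptors, Adra1b (ENSMUSG00000050541, GRCm38 chromosome 11, 43774606 to 43901210, minus strand) encodes the alpha1B receptor. It measured 17.0, 17.7, 16.5 and 14.5 CPM in the 4 AAV9-GFP sham mice and 16.2, 8.10, 10.7 and 7.96 CPM in the 4 AAV9-GFP TAC mice. TAC mouse 1 lay among the sham mice, and the other 3 lay below all of them. The log2 fold change was -0.61 (SE 0.19, adjusted p = 0.033). In AAV9-Cardinal hearts it measured 16.1, 19.8, 17.1 and 22.3 CPM after sham surgery and 10.8, 10.8, 10.4 and 13.7 CPM after TAC. Here every TAC mouse lay below every sham mouse, as was so for 13.7% of all genes in either direction, and the log2 fold change was -0.71 (SE 0.19, adjusted p = 0.035). On average over both viruses it fell by 0.66 on the log2 scale (SE 0.13, adjusted p = 0.0020). The difference in TAC response between the viruses was -0.10 (95% interval -0.66 to 0.46, adjusted p = 0.93), so a difference of up to either bound could not be seen or dismissed.

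The call on Adra1b within each virus rested on few mice. In AAV9-GFP hearts it was lost without sham mouse 1, 2 or 3 or TAC mouse 3, 4 or 7, with an adjusted p between 0.062 and 0.11 and log2 fold changes between -0.61 and -0.49, and in AAV9-Cardinal hearts without sham mouse 2 or 4 or TAC mouse 1, 4 or 5, with an adjusted p between 0.056 and 0.10. The average effect kept an adjusted p of at most 0.0055 whichever mouse was left out. Ventricular cardiomyocyte markers were lower after TAC in AAV9-GFP hearts (5 of 6 passed the test, against 17.4% of all genes, summed 38683 to 42084 CPM in sham and 30077 to 36422 CPM in TAC mice). In AAV9-Cardinal hearts 0 of 6 passed by edgeR, against 6.48% of all genes, and 3 had an unadjusted p under 0.05, as did 3682 of all 16857 genes. The sums were 37393 to 41460 and 35760 to 40250 CPM. In the average TAC effect, 3 of 3 tested markers of sympathetic neurons and Schwann cells passed as lower (median log2 fold change -0.78). Their sums were low, between 1.51 and 7.37 CPM over all mice. Of 5 endothelial markers 4 passed as higher (median 0.24), against 23.1% of all genes in either direction. The part of any of these markers in the Adra1b result was not tested.

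Sequence before the annotated starts of Adra1b is shown because this receptor was called with both viruses, beside that of Adrb1, whose level did not pass the test. RefSeq windows on GRCm38.p6 matched 4 of the 7 members (Adra1b, Adrb1, Grk5 and Adcy5) and none was matched for Adra1a, Adcy6 and Adrb3. Adra1b has 2 starts in that table, and 250 bases upstream of each are printed 5′ to 3′ on the strand of the gene, with that of Adrb1. Capitals mark a GC box (GGGCGG or CCGCCC, a site for Sp1-type factors) or the half-site of a cyclic AMP response element (TGACG or CGTCA), each searched on both strands.
Adra1b, outer start, chr11:43901238-43901487, minus strand: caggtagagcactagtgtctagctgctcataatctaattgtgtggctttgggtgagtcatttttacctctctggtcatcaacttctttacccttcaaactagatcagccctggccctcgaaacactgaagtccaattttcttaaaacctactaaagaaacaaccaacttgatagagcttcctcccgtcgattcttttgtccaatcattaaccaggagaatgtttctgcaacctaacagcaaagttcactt
Adra1b, inner start, chr11:43836490-43836739, minus strand: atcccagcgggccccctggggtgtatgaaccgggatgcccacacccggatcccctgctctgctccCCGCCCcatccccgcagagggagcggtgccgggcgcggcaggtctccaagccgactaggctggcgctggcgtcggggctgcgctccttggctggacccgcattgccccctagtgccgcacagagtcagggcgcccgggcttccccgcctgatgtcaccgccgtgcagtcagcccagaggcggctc
Adrb1, chr19:56721867-56722116, plus strand: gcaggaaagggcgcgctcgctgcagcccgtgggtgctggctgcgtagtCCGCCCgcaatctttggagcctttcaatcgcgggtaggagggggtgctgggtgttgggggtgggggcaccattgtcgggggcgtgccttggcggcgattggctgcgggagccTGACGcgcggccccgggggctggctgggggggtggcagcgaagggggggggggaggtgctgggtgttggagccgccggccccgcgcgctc

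The windows of Adra1b differed in composition. The outer one was 41.6% G and C and held none of the letters searched for, and the inner one was 72.8% G and C and held 1 GC box. The Adrb1 window was 74.0% G and C and held 1 GC box and 1 cyclic AMP half-site. None of the 3 held TATAAA or TTTATA, the letters of a TATA box. Among 32536 upstream windows of the same length, 33.0% held a GC box, 17.9% a cyclic AMP half-site and 12.3% a TATA box, and the median G and C content was 52.4%. A match is a description of the letters only, and the counts per gene do not show which start was used.

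Adra1a (ENSMUSG00000045875, chromosome 14, 66635251 to 66771168, plus strand) encodes the alpha1A receptor. In AAV9-GFP hearts it measured 22.0, 20.1, 20.8 and 17.3 CPM after sham surgery and 12.0, 7.89, 18.9 and 13.4 CPM after TAC. TAC mouse 4 lay within the sham range and the other 3 below it. The log2 fold change was -0.62 (SE 0.23, adjusted p = 0.073). AAV9-Cardinal sham mice measured 21.3, 23.1, 20.3 and 25.6 CPM. AAV9-Cardinal TAC mice fell into a higher pair, at 22.7 and 20.4 CPM (mice 4 and 5), and a lower pair, at 13.5 and 11.8 CPM (mice 1 and 6), for a log2 fold change of -0.40 (SE 0.22, adjusted p = 0.33). Over both viruses Adra1a fell by 0.51 on the log2 scale (SE 0.16, adjusted p = 0.030).

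This average call on Adra1a was lost in 8 of 16 fits that left out 1 mouse, with an adjusted p between 0.050 and 0.061 without AAV9-GFP sham mouse 1 or 3, AAV9-GFP TAC mouse 1 or 3, AAV9-Cardinal sham mouse 2 or 4, or AAV9-Cardinal TAC mouse 1 or 6. Without AAV9-GFP TAC mouse 4, the TAC effect in AAV9-GFP hearts passed at an adjusted p of 0.015 with a log2 fold change of -0.85. The 2 alpha1 receptors did not rank the TAC mice alike. AAV9-GFP TAC mouse 1 was highest for Adra1b and mouse 4 highest for Adra1a, and AAV9-Cardinal TAC mouse 6 was highest for Adra1b and lowest for Adra1a. Across the 16 mice, log2 CPM of the pair had a Pearson r of 0.60, and after subtraction of group means it was 0.10, given as descriptions.

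Adrb1 (ENSMUSG00000035283, chromosome 19, 56722199 to 56733113, plus strand) encodes the beta1 receptor, through which noradrenaline raises the rate and force of the heartbeat. It measured 10.6, 11.9, 10.9 and 9.53 CPM in AAV9-GFP sham mice and 10.1, 10.7, 9.27 and 11.1 CPM in AAV9-GFP TAC mice. It measured 10.6, 13.4, 9.90 and 10.6 CPM in AAV9-Cardinal sham mice and 9.29, 9.73, 9.96 and 13.5 CPM in AAV9-Cardinal TAC mice. All 4 groups overlapped. The log2 fold change with TAC was -0.06 in AAV9-GFP hearts (95% interval -0.32 to 0.20, adjusted p = 0.80) and -0.07 in AAV9-Cardinal hearts (-0.33 to 0.19, adjusted p = 0.81). Averaged over both viruses the interval ran from -0.25 to 0.12, so changes beyond these bounds lay outside it.

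Grk5 (ENSMUSG00000003228, chromosome 19, 60889749 to 61095968, plus strand) measured 32.6, 25.3, 25.7 and 29.0 CPM in AAV9-GFP sham mice and 33.4, 45.1, 30.2 and 33.4 CPM in AAV9-GFP TAC mice. TAC mouse 3 was highest, and TAC mouse 4 lay within the sham range. The log2 fold change was 0.33 (95% interval -0.03 to 0.70, adjusted p = 0.21). In AAV9-Cardinal hearts it measured 23.5, 27.3, 34.1 and 25.9 CPM after sham surgery and 41.6, 23.2, 28.3 and 27.3 CPM after TAC, with a log2 fold change of 0.12 (-0.24 to 0.49, adjusted p = 0.76). The highest of these was AAV9-Cardinal TAC mouse 1, the library that stood apart, and without it the log2 fold change was -0.07 (adjusted p = 0.83).

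The cyclases Adcy5 and Adcy6 are closely related forms that calcium inhibits and the 2 main ones of heart muscle. Adcy6 (ENSMUSG00000022994, chromosome 15, 98589973 to 98610076, minus strand) measured 205, 182, 175 and 221 CPM in AAV9-GFP sham mice and 156, 150.0, 166 and 167 CPM in AAV9-GFP TAC mice. Every TAC mouse lay below every sham mouse, as was so for 20.3% of all genes in either direction, and the log2 fold change was -0.29 (SE 0.09, adjusted p = 0.041). In AAV9-Cardinal hearts it measured 179, 196, 214 and 203 CPM after sham surgery and 157, 215, 196 and 203 CPM after TAC. TAC mouse 1 lay below all sham mice, TAC mouse 4 just above them, and TAC mice 5 and 6 within their range. The log2 fold change was -0.04 (95% interval -0.24 to 0.16, adjusted p = 0.88), or 0.05 without TAC mouse 1 (adjusted p = 0.76). The difference in TAC response between the viruses was 0.26 (-0.02 to 0.54, adjusted p = 0.52), so the viruses were not shown to differ for Adcy6.

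The call on Adcy6 in AAV9-GFP hearts was narrow. It was lost in 10 of 16 fits that left out 1 mouse, with an adjusted p between 0.050 and 0.12 and log2 fold changes between -0.31 and -0.23, the mice being AAV9-GFP sham 1 and 4, AAV9-GFP TAC 1, 3, 4 and 7, AAV9-Cardinal sham 2 and 4, and AAV9-Cardinal TAC 5 and 6. The antisense gene Gm29331 overlaps 8.92% of the exon length of Adcy6 and had at most 2 counts in any mouse, beside 3133 to 4585 for Adcy6. Whether the counting used strand is not given in the sources used here, and reads lost or shared at that overlap were not tested. Cardiomyocyte markers were lower in the same AAV9-GFP TAC mice, with a median log2 fold change of -0.30 over the 6 markers, and their part in the result was not tested.

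Adcy5 (ENSMUSG00000022840, chromosome 16, 35154877 to 35305738, plus strand) kept close levels throughout. It measured 43.9, 45.6, 40.3 and 52.2 CPM in AAV9-GFP sham mice, 46.3, 45.1, 43.7 and 50.5 CPM in AAV9-GFP TAC mice, 48.8, 44.9, 44.3 and 45.9 CPM in AAV9-Cardinal sham mice, and 50.8, 45.3, 44.9 and 49.1 CPM in AAV9-Cardinal TAC mice. All 4 groups overlapped, with a standard deviation between 4.30% and 10.9% of the group mean. The log2 fold change with TAC was 0.03 in AAV9-GFP hearts (95% interval -0.13 to 0.18, adjusted p = 0.85) and 0.05 in AAV9-Cardinal hearts (-0.11 to 0.20, adjusted p = 0.77). By contrast, the standard deviation of Adra1a was 10.01% of the mean in AAV9-GFP sham mice and 34.8% in AAV9-GFP TAC mice, and for Adra1b these were 8.37% and 36.1%. In AAV9-Cardinal sham and TAC mice they were 10.2% and 30.8% for Adra1a and 14.9% and 13.3% for Adra1b, so the Adra1b value was not higher after TAC there.

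**Figure D2:**
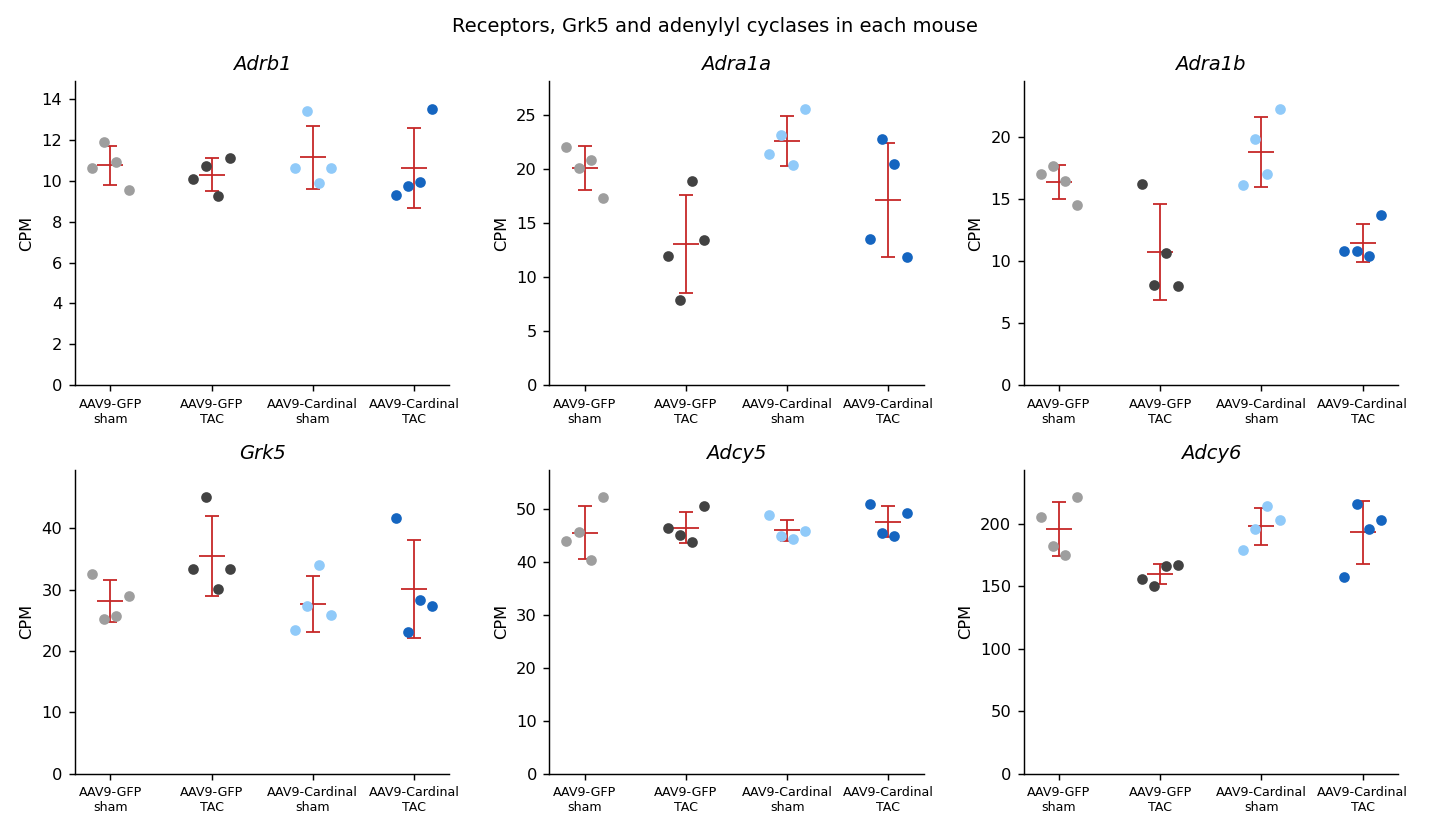
CPM of the 6 tested members, with a point for each of 4 mice per group and the mean and SD in red, on axes that start at 0. Adra1b lies lower in both TAC groups, with AAV9-GFP TAC mouse 1 at 16.2 CPM among the sham values, and Adcy5 lies between 40.3 and 52.2 CPM in all mice.

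The second comparison asked whether Cardinal altered these genes. In sham hearts 0 of 6 members passed the test by edgeR, with 0 at an unadjusted p under 0.05 and 0 by DESeq2. Of all 16857 genes 0.0119% passed by edgeR, and 437 had an unadjusted p under 0.05. The log2 differences of AAV9-Cardinal from AAV9-GFP lay between -0.02 (Grk5) and 0.19 (Adra1b). In TAC hearts again 0 of 6 passed by edgeR, where 0.101% of all genes passed, and 0 by DESeq2. By edgeR 1 member, Adcy6, had an unadjusted p under 0.05, as did 2528 of all 16857 genes. Adcy6 was 0.27 higher on the log2 scale with AAV9-Cardinal (95% interval 0.07 to 0.47, adjusted p = 0.19). The groups overlapped. AAV9-Cardinal TAC mouse 1, at 157 CPM, lay among the AAV9-GFP TAC mice, and the other mice of its group lay above all of them. Without mouse 1 the log2 difference was 0.36 (adjusted p = 0.027), and this was the 1 of 16 fits leaving out 1 mouse that passed. Mouse 1 also had the highest Gm12295 of its group, at 93.9 CPM against 18.3 to 20.6 CPM. Adra1a was 0.40 higher (-0.09 to 0.88, adjusted p = 0.44) and Grk5 was -0.24 (-0.60 to 0.12, adjusted p = 0.56), or -0.43 without AAV9-Cardinal TAC mouse 1 (adjusted p = 0.12). In the test of the difference in TAC response 0 of 6 passed by edgeR, with 0 at an unadjusted p under 0.05 and 0 by DESeq2 (which gave no adjusted p for 4). By edgeR 0.0119% of all 16857 genes passed, and 1722 had an unadjusted p under 0.05.

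**Figure D3:**
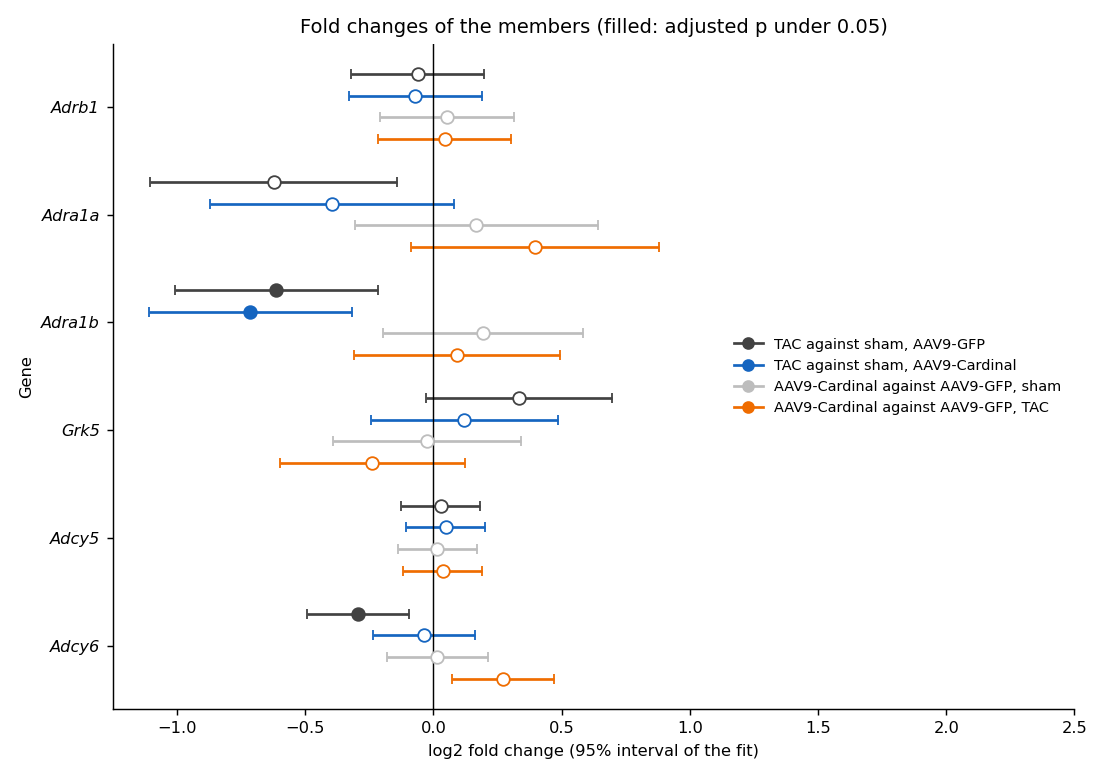
Log2 fold change of each tested member with its 95% interval in 4 comparisons, filled where the adjusted p is under 0.05. Filled points are Adra1b after TAC with each virus (-0.61 and -0.71) and Adcy6 after TAC in AAV9-GFP hearts (-0.29), and the points of Adcy5 and Adrb1 lie near 0 in all 4.

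Ratios of 2 genes within a mouse are free of library size, so ratios of family members were compared between TAC and sham mice, with labels exchanged within each virus (exact two-sided permutation test, 4900 labelings, smallest p 0.00041). The log2 ratio of Adcy5 to Adcy6 counts was -2.11 ± 0.10 in AAV9-GFP sham and -1.78 ± 0.09 in AAV9-GFP TAC hearts (SD, n = 4), with every TAC mouse above every sham mouse. With AAV9-Cardinal it was -2.10 ± 0.17 and -2.01 ± 0.27, and the groups overlapped. The average rise of 0.21 had p = 0.036 in the exact permutation test and p = 0.11 after adjustment over the 3 ratios. Within a virus the rise was 0.32 with AAV9-GFP and 0.09 with AAV9-Cardinal (p = 0.029, the smallest possible, and 0.60 in the exact permutation test). The AAV9-Cardinal rise rested on TAC mouse 1, at -1.63. The other TAC mice of that virus were at -2.25, -2.12 and -2.05, beside the sham mean of -2.10. The unadjusted p of the average rose to at most 0.094 without AAV9-Cardinal TAC mouse 1, where the average rise was 0.14. This p exceeded 0.05 in 9 of 16 fits that left out 1 mouse. These 9 left out AAV9-Cardinal sham mouse 2, 3 or 4, AAV9-Cardinal TAC mouse 1 or 6, AAV9-GFP sham mouse 1, or AAV9-GFP TAC mouse 1, 3 or 7.

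The ratio of Adra1a to Adra1b did not move in a common direction. Its log2 mean was 0.29 ± 0.09 in AAV9-GFP sham and 0.27 ± 0.62 in AAV9-GFP TAC hearts, and 0.27 ± 0.09 and 0.54 ± 0.60 with AAV9-Cardinal (SD, n = 4). The average difference was 0.13 with p = 0.56 in the exact permutation test. With 1 mouse left out it lay between 0.038 (without AAV9-GFP TAC mouse 4) and 0.25 (without AAV9-Cardinal TAC mouse 6), with p between 0.21 and 0.87. The spread between mice was wider after TAC than after sham surgery with both viruses.

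**Figure D4:**
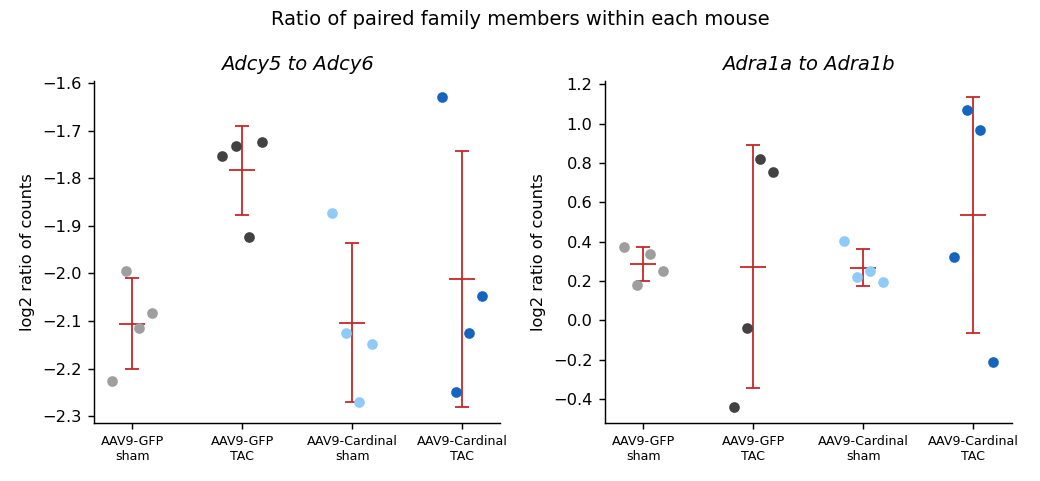
Log2 ratio of counts of 2 family members in each mouse, with the mean and SD of 4 mice in red. The Adcy5 to Adcy6 ratio is higher in all 4 AAV9-GFP TAC mice than in the sham mice, and the Adra1a to Adra1b ratio is spread from -0.44 to 1.07 in TAC mice and from 0.18 to 0.40 in sham mice.

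Other genes of the pathway were read from a list of 66, of which 62 passed the filter on low counts. In AAV9-GFP hearts 8 passed the test as higher and 12 as lower after TAC (32.3% of those tested, against 17.4% of all genes, 8.49% as higher and 8.92% as lower). In AAV9-Cardinal hearts 3 passed as higher and 7 as lower (16.1%, against 6.48%, 3.10% as higher and 3.38% as lower). Called with both viruses were 7 genes, which is 35.0% of those called with AAV9-GFP and 70.0% of those called with AAV9-Cardinal. The AAV9-Cardinal count of 10 was 6 without AAV9-Cardinal sham mouse 1, 5 without sham mouse 2, and 4 without TAC mouse 5 or TAC mouse 6. The median log2 fold change of the 62 was -0.01 with either virus. The list was written with earlier results of these data known, so these shares are a description.

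Adra1d, Grk2 and Gnas, which stand beside the members in the same routes, did not pass the test. Adra1d, the remaining alpha1 receptor, measured 1.12 ± 0.20 CPM in AAV9-GFP sham and 1.51 ± 0.66 CPM in AAV9-GFP TAC hearts (SD, n = 4), with log2 fold changes of 0.43 with AAV9-GFP and 0.26 with AAV9-Cardinal (adjusted p = 0.38 and 0.71). Grk2, the other main receptor kinase of the heart, was steady, with a log2 fold change of 0.01 with either virus (SE 0.04). Gnas, which encodes the stimulatory G protein, had log2 fold changes of 0.03 and 0.10 (adjusted p = 0.71 and 0.22). Of 6 receptor kinases and arrestins and of 6 G protein genes, 0 passed in the average TAC effect by edgeR, against 23.1% of all genes. At an unadjusted p under 0.05 there were 0 (5884 of all 16857 genes), and 0 passed by DESeq2. Within a virus, 1 receptor kinase or arrestin with AAV9-GFP and 1 G protein gene with AAV9-Cardinal had an unadjusted p under 0.05 by edgeR, as did 5041 and 3682 of all genes.

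Among the other cyclases, Adcy7, a form better known from blood cells, rose in AAV9-GFP hearts. It measured 7.24, 10.9, 10.04 and 11.9 CPM after sham surgery and 16.3, 21.6, 18.6 and 19.2 CPM after TAC, so the groups did not overlap (log2 fold change 0.92, SE 0.17, adjusted p = 0.0016). With AAV9-Cardinal its log2 fold change was 0.35 (SE 0.17, adjusted p = 0.24), and the difference in response did not pass the test (-0.57, adjusted p = 0.43). Fibroblast markers were higher in the same AAV9-GFP TAC mice, with a summed level of 392 to 450 CPM in sham and 600 to 806 CPM in TAC mice. Of the 6 markers 3 were called, against 17.4% of all genes, and their part in this result was not tested. Macrophage markers summed to 68.0 to 78.7 CPM in sham and 72.5 to 101 CPM in TAC mice, with 0 of 5 called by edgeR, beside the same 17.4% of all genes. At an unadjusted p under 0.05 there were 0, against 5041 of all 16857 genes. Adcy8 and Adcy9 fell on average over both viruses (by 0.85 on the log2 scale, adjusted p = 0.026, and by 0.23, adjusted p = 0.047), Adcy8 from a level near 1 CPM. Adcy1, Adcy3 and Adcy4 did not pass, with average log2 fold changes of -0.06, 0.15 and 0.16, and Adcy2 and Adcy10 were not tested.

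Several genes of the cyclic AMP route changed with both viruses. Pln encodes phospholamban, the protein kinase A target that restrains the calcium pump, with a log2 fold change of -0.50 in AAV9-GFP hearts and -0.29 in AAV9-Cardinal hearts (SE 0.05 in each, adjusted p = 3.5e-05 and 0.0068). Pkig and Pkia encode inhibitor peptides of protein kinase A, and their log2 fold changes were -0.42 and -0.31 in AAV9-GFP hearts and -0.32 and -0.27 in AAV9-Cardinal hearts. Akap7, which anchors protein kinase A near phospholamban, was at -0.42 and -0.37. Pde8a, a phosphodiesterase that breaks down cyclic AMP, rose by 0.52 and 0.42. These 5 were named for their small p-values, and they passed with each virus (17.4% and 6.48% of all genes did). The TAC and sham mice of each did not overlap with either virus, as for 20.3% and 13.7% of all genes. Among the 7 phosphodiesterases listed, Pde8a was the 1 that passed the test as higher. The largest rise among them was not called, with a log2 fold change of 0.92 with AAV9-GFP and 1.20 with AAV9-Cardinal. For Pde2a, Gm45837 lies on the same strand over 64.3% of the exon length, and the counts of Pde2a ranged from 18 to 1110 between mice. With AAV9-GFP 3 passed as lower, and these are named after their values were seen, Pde3a at -0.34, Pde4b at -0.50 and Pde4d at -0.70 (adjusted p = 0.021, 0.021 and 0.016). On average over both viruses 4 passed as lower, the same 3 and Pde4a (-0.31, adjusted p = 0.033). With AAV9-Cardinal Pde8a was the phosphodiesterase that passed, and Pde3a, Pde4b and Pde4d measured -0.12, -0.29 and -0.37 (adjusted p = 0.51, 0.23 and 0.25). The gene Gm47644 lies on the opposite strand over 59.6% of the exon length of Pln, so reads of the pair could not be told apart if strand was not used.

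Genes that handle catecholamines changed as well. Maob, a mitochondrial enzyme that breaks down monoamines, measured 60.5, 52.4, 58.7 and 59.7 CPM in AAV9-GFP sham mice and 29.8, 28.9, 29.1 and 26.2 CPM in AAV9-GFP TAC mice. In AAV9-Cardinal hearts it measured 51.1, 59.3, 54.9 and 54.4 CPM after sham surgery and 33.4, 44.3, 44.1 and 39.9 CPM after TAC. TAC and sham mice did not overlap with either virus, and every AAV9-Cardinal TAC mouse lay above every AAV9-GFP TAC mouse. The mice of these TAC groups did not overlap for 6.77% of all genes. Its log2 fold change with TAC was -1.02 (SE 0.08) with AAV9-GFP and -0.44 (SE 0.08, adjusted p = 0.0068) with AAV9-Cardinal. By edgeR, Maob was the gene of the list called between the viruses in TAC hearts (0.50 higher with AAV9-Cardinal on the log2 scale, SE 0.08, adjusted p = 0.039), while the difference in response did not pass by edgeR (0.58, adjusted p = 0.28) and passed by DESeq2 (0.58, adjusted p = 0.0023). DESeq2 called 5 genes of the list between the viruses in TAC hearts, Maob and also Adcy7 (-0.55), Pln (0.24), Prkcd (-0.42) and Rgs2 (0.82), log2 differences of AAV9-Cardinal from AAV9-GFP with an adjusted p of 0.037, 0.0022, 0.020 and 0.012. The share of all genes that DESeq2 called there is not given here. The edgeR call on Maob held in 4 of 16 fits that left out 1 mouse (AAV9-Cardinal TAC mouse 1, AAV9-GFP sham mouse 4, or AAV9-GFP TAC mouse 1 or 4). It was lost without any of the other 12, at an adjusted p between 0.054 and 0.18, and the log2 difference stayed between 0.46 and 0.59 over all 16 fits.

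Slc22a3, a transporter that clears catecholamines, had log2 fold changes of -1.05 with AAV9-GFP and -0.87 with AAV9-Cardinal (adjusted p = 0.0019 and 0.017). Rgs2, which shortens Gq signals, measured 26.3, 24.8, 27.3 and 22.0 CPM in AAV9-GFP sham mice and 11.9, 8.94, 12.6 and 9.04 CPM in AAV9-GFP TAC mice. All 4 TAC mice lay below all sham mice, and the log2 fold change was -1.24 (SE 0.23, adjusted p = 0.0017). In AAV9-Cardinal hearts its mice overlapped, with a log2 fold change of -0.36 (SE 0.22, adjusted p = 0.38), and the difference in response was 0.89 (SE 0.32, adjusted p = 0.37). Plcb4, a phospholipase C of the alpha1 route, rose by 0.27 in AAV9-Cardinal hearts (adjusted p = 0.035) and measured 0.21 in AAV9-GFP hearts (adjusted p = 0.059). Of the 9 genes listed for the alpha1 route, 2 passed as higher and 1 as lower with each virus, with no gene in common. Of all genes, 17.4% passed with AAV9-GFP and 6.48% with AAV9-Cardinal. The 2 higher with AAV9-GFP were the protein kinase C genes Prkca and Prkcd, named after their values were seen.

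**Figure D5:**
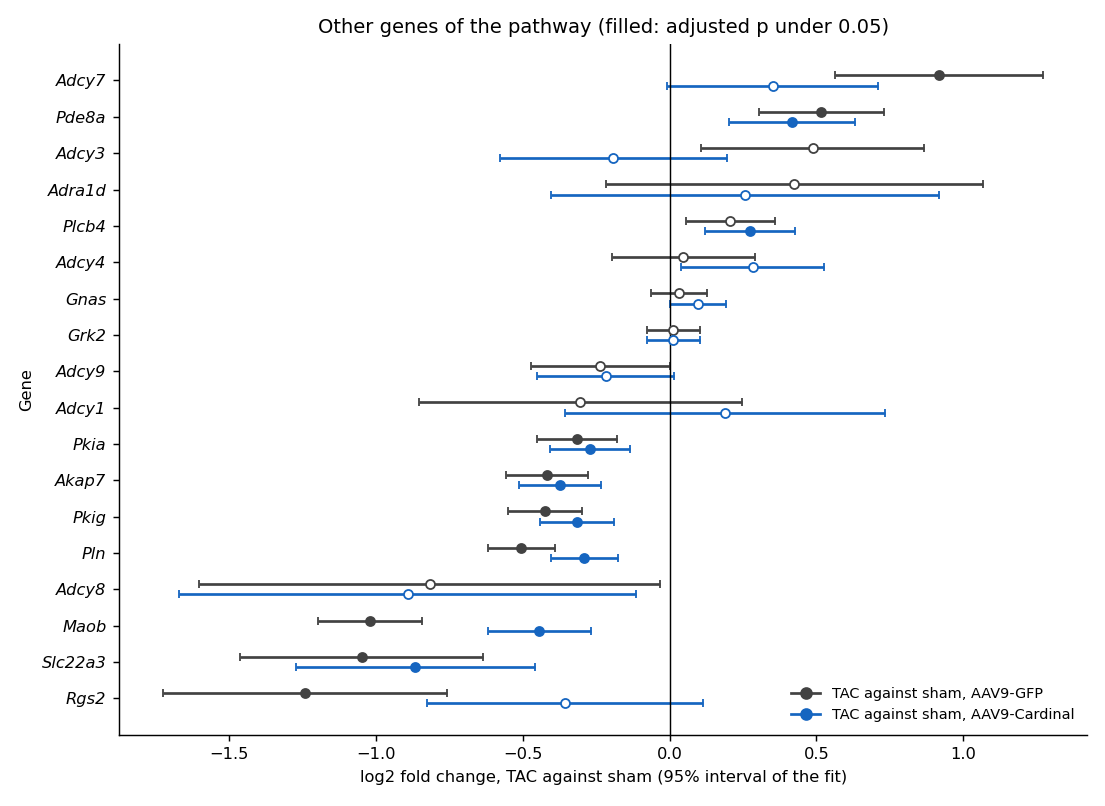
Log2 fold change with TAC and its 95% interval for the named genes of the pathway list, with each virus, filled where the adjusted p is under 0.05. Maob, Slc22a3, Pln, Pkig, Akap7 and Pkia are filled below 0 with both viruses and Pde8a above 0 with both, while Rgs2 and Adcy7 are filled for AAV9-GFP.

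Genes with the profile most like each member over the 16 mice were read from log2 CPM and are given as a description that shares the group differences. Klf15, a transcription factor of cardiac metabolism, was closest to Adra1a (Pearson r = 0.95), followed by Bach1 (0.93) and Agtpbp1 (0.92). Agpat3 (0.94), Rbmx (0.94) and Lingo3 (0.93) were closest to Adra1b, and Golim4 (0.91), Ifitm1 (0.84) and Gm12620 (0.82) to Grk5. For Adcy6 they were 4930481A15Rik (0.90), Clcn4 (0.90) and Rprd1a (0.89). The members that moved least had weaker neighbours, with 0.77, 0.74 and 0.73 for Fau, Gm13127 and Abhd17c beside Adrb1, and 0.80, 0.80 and 0.77 for Gm37570, Prkcsh and Arf2 beside Adcy5. Among the members, the most opposed pair was Adra1a and Grk5, with r = -0.72 over 16 mice and -0.60 after subtraction of group means.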

How the data were processed

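The table that the authors deposited holds counts of reads on Ensembl genes in the 16 mice, not normalized. The submitters' processing notes name FastQC, HISAT2 2.1.0, edgeR 3.26.1 and GRCm38, and the counting program, the annotation and the use of strand are not given in the sources used here. Gene names came from GENCODE M21 (55480 of 55573 matched), and exon length is the union of a gene's exons. All 16 mice were fitted in R 4.3.3 with edgeR 4.0.16 (TMM, expression filter, 4 group means, quasi-likelihood test), with Benjamini-Hochberg adjustment over 16857 genes and a threshold of 0.05. CPM used TMM library sizes, and log2 CPM a prior count of 2. The common coefficient of variation between mice of a group was 0.128. No pair of mice within a group agreed within sampling noise (chi-square per degree of freedom 5.10 to 14.9). The labels do not say how the mice were housed or bred, so p-values measure the spread between these mice. In simulated counts of the TAC comparison in AAV9-GFP hearts (16650 genes, 200 changed), 76.0% were called (84.2% at 2-fold or more, 59.7% at 1.5-fold) with 4 false calls. Far fewer genes were changed there than the 2934 of 16857 called in these data. Recovery of changes as small as that of Adcy6 (0.82 times) is not given. The simulation therefore does not give the power of the tests reported here.

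Named were the members, Adra1d, Grk2, Gnas, the other tested cyclases, up to 8 further pathway genes per comparison with the smallest p among those called, and the 3 genes most like each member. The members and lists were chosen with earlier results of these data known. Alternatives were DESeq2 1.42.0, size factors of the RLE type, 2 other filters, the 8 mice compared alone, a robust spread, mitochondrially encoded genes left out, the replicate number as a block, and each mouse left out. An offset for GC content was added after seeing the data. The p-values of the ratios were adjusted over 3, and 1 of these, with 1 gene of the pathway list, is not reported here. Ratios used counts plus 0.5, with plus 1 as the alternative, and plots were drawn with matplotlib 3.10.9.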

Additional observations from a re-analysis of the deposited data

Results flagged for a closer look

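In 4 of 96 groups of 4 mice examined for the named genes, 1 mouse lay far from the other 3 (gap over range above 0.829), and chance gives about 1 in 20, or 4.8. Both alpha1B and beta1 receptor genes were high in AAV9-Cardinal TAC mouse 6, with Adra1b at 13.7 CPM against 10.4 to 10.8 and Adrb1 at 13.5 CPM against 9.29 to 9.96. Adra1d was low in AAV9-Cardinal TAC mouse 1, at 0.973 CPM against 1.38 to 1.46. Gnas was low in AAV9-Cardinal sham mouse 4, at 588 CPM against 619.6 to 626, and this was the library with the lowest total of 16441997 counts.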

How the results depend on the processing

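Leaving out each mouse in turn gave 0 to 2 called members with AAV9-GFP, 0 to 1 with AAV9-Cardinal, 1 to 3 on average and 0 to 1 between the viruses after TAC (Adcy6 without AAV9-Cardinal TAC mouse 1), and 16 to 21, 4 to 10 and 0 to 5 other pathway genes for TAC with AAV9-GFP, TAC with AAV9-Cardinal and the viruses after TAC. Each of the 5 called log2 fold changes of the members kept its sign under each alternative and with each mouse left out. Without the filter on low counts more genes entered the adjustment, and the members called were 0, 0 and 1 (TAC with AAV9-GFP, with AAV9-Cardinal, on average) and the pathway genes between the viruses 0. With only the 8 mice compared these were 1 member with AAV9-GFP and 0 pathway genes between the viruses. DESeq2 called 3 members with AAV9-GFP, adding Adra1a (adjusted p = 0.035), and 5 pathway genes between the viruses after TAC. The share of all genes that DESeq2 called is not given here, so its counts stand without a background. The cause of the shifts under these alternatives was not tested.

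Mice share replicate numbers across groups. Each number was read as a mouse number within its group, so the numbers were not taken as pairs. The deviations from group means of 16 same-numbered pairs correlated at -0.04 to 0.21 (median 0.05), over 0.1 in 4, all of them pairs of mice numbered 1. Whether mice of the same number share a factor was not tested. Pairs with different numbers were over 0.1 in 4 of 80 (median -0.01). With the replicate number as a block, which leaves AAV9-Cardinal TAC mice 5 and 6 and AAV9-GFP TAC mouse 7 out of the contrasts because their numbers occur once, 0, 0 and 1 members and 12 and 0 pathway genes (TAC with AAV9-GFP and with AAV9-Cardinal) were called, and 0 between the viruses after TAC. Under the block the log2 differences between the viruses after TAC turned to -0.056 for Adrb1 and -0.17 for Adra1b, and Adcy5 with TAC in AAV9-GFP turned to -0.016. Uncalled values near 0 also changed sign elsewhere. Adcy5 with TAC in AAV9-GFP was -0.036 with the GC offset, and the difference in response of Adrb1 was 0.0031 without the filter and 0.078 with the GC offset, an alternative chosen after seeing the data.

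Over the fits that left out 1 mouse, the Adcy5 to Adcy6 ratio ranged from 0.14 to 0.25 and the Adra1a to Adra1b ratio from 0.038 to 0.25. Log2 values that crossed 0 were, for TAC with AAV9-GFP, Adcy5 (-0.025 to 0.10). For TAC with AAV9-Cardinal they were Adrb1 (-0.20 to 0.034), Grk5 (-0.073 to 0.24) and Adcy6 (-0.094 to 0.052). Between the viruses in sham hearts they were Adrb1 (-0.051 to 0.11), Grk5 (-0.14 to 0.054), Adcy5 (-0.037 to 0.088) and Adcy6 (-0.035 to 0.080), and after TAC Adrb1 (-0.091 to 0.11) and Adra1b (-0.025 to 0.36). For the difference in response they were Adrb1 (-0.15 to 0.10), Adra1b (-0.22 to 0.17) and Adcy5 (-0.052 to 0.074). Adrb3 had 2 counts over all 16 mice, so depth allows no comparison of it.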
